A study of Mus musculus with 6 samples.

Results

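The complement genes described here are the central component *C3*, the classical pathway genes *C4b*, *C4a* and *C1ra*, the alternative pathway gene *Cfb*, the soluble regulators *Serping1* and *Cfi*, and the membrane regulators *Cd55* and *Cd59a*. They were chosen by gene symbol, with earlier results of these data known, and all 9 were found among the 24421 genes of the deposited tables. Libraries of total RNA came from hippocampal astrocytes of adult male mice on a C57BL/6 background that were homozygous for an allele of *Siglech* carrying the diphtheria toxin receptor (*Siglech* dtr/dtr). In the DT-treated group, diphtheria toxin (DT) was given intraperitoneally at 50 μg/kg, and in the PBS group only the vehicle was given. Tissue was taken 2 days later in both. Each group had 3 libraries, and each library was a pool of RNA from 2 mice, so the spread between libraries is a spread between pools. The PBS mice carried the same allele, and no mice without the allele were compared. Siglec-H is found on microglia and is nearly absent from other brain cells, so the receptor makes microglia the target of the toxin, while the RNA measured here is that of cells selected as astrocytes.

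Complement is a cascade of plasma and tissue proteins that tags surfaces for removal. In the classical pathway, C1q with the proteases C1r and C1s cleaves C4 and C2, which together form an enzyme that cleaves C3. In the alternative pathway, factor B takes the place of C2. Fragments of C3 stay on the tagged surface and are read by receptors of phagocytes, while regulators such as C1 inhibitor, factor I, CD55 and CD59 stop the cascade at successive steps. In the brain, C1q is made mainly by microglia and macrophages, while C4 and C3 are also made by astrocytes, and *C3* and *Serping1* are in addition used as markers of A1 reactive astrocytes.

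The libraries held between 21704891 and 32933975 reads assigned to genes. Values are given as TPM (transcript abundance scaled to a fixed total, a level per transcript length that can be set beside that of another gene) and as CPM (reads scaled to a fixed total, on the authors' scaled library sizes). The label of the cells was checked against 12 astrocyte genes, whose summed level was 58910 to 63990 CPM after PBS and 60010 to 66690 CPM after DT. Most of this sum was *Slc1a2*, which averaged 36930 CPM after PBS and 38290 CPM after DT, so the sum says little of the lower genes. *Aqp4*, for example, was at 1304, 743 and 660 CPM after PBS and at 943, 817 and 2871 CPM after DT. None of these 12 genes passed the threshold in limma. The astrocyte gene *Gfap*, which the study reported as upregulated after DT in these libraries, was not among them. The comparison of DT with PBS was made with limma on log2(CPM + 0.1) for the 15137 genes whose CPM averaged 0.5 or more, and a gene was called at a Benjamini-Hochberg adjusted p-value under 0.05 over all of these genes. Because the samples were bulk RNA, fewer cells of a type cannot be told apart from less RNA per cell.

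Of the 9 complement genes, *C4b*, *C4a* and *C3* rose after DT and none fell. The remaining 6 were not called. 8 of the 9 passed the filter on low values, and *Cfi* did not. Over all genes tested, 0.555% were called higher and 0.159% lower. At an unadjusted p-value under 0.05, 5 of the complement genes were higher and 0 were lower, against 894 and 682 of all genes tested. The edgeR tests and DESeq2 on the recovered reads also called 0 of the complement genes lower. Over all genes tested, the edgeR quasi-likelihood test, the edgeR exact test and DESeq2 called 24, 72 and 98 lower. The median log2 fold change of the 8 tested complement genes was 0.81, beside -0.0052 for all genes tested. In 4 of the 8, the lowest DT library lay above the highest PBS library, and in 1 the highest DT library lay below the lowest PBS library. Over all genes tested these shares were 8.75% and 7.57%. Since the complement genes were chosen with earlier results of these data known, these counts are given as a description.

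**Figure D1:**
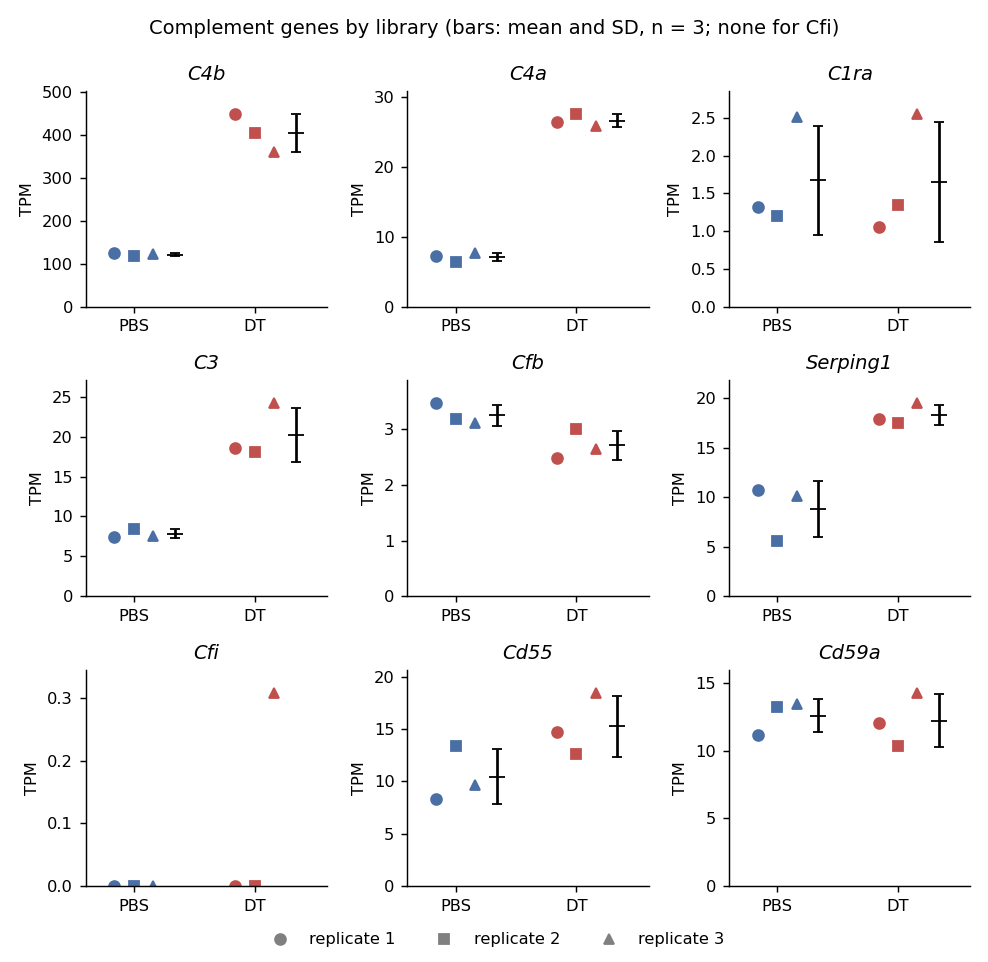
TPM (vertical axis, from 0, with its own scale in each panel) of the 9 complement genes in the 3 PBS and the 3 DT libraries. Symbols are libraries, bars are the mean and SD of 3 libraries, and no bar is drawn for *Cfi*. *C4b*, *C4a*, *C3* and *Serping1* stood apart between the groups with DT above, *Cfb* with DT below, and the other 4 genes overlapped.

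*C4b* encodes C4, which is cleaved by C1s and binds covalently to surfaces. It lies on the minus strand of chromosome 17, at chr17:34728380-34743882 of mm10, and its longest annotated transcript has 41 exons. *C4b* was at 124, 117 and 122 TPM in the PBS libraries and at 449, 405 and 361 TPM in the DT libraries. The lowest DT library lay far above the highest PBS library, and the DT libraries varied more among themselves than the PBS libraries did. The PBS group averaged 121 ± 3.54 TPM (SD, n = 3) and the DT-treated group 405 ± 44.1 TPM (SD, n = 3). The log2 fold change was 1.72 (standard error 0.09, 95% confidence interval 1.52 to 1.93, limma adjusted p = 8.2e-05), a 3.30-fold rise. Between 4872 and 22361 reads per library stood behind these values.

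*C4a* encodes Slp, the sex-limited protein, a C4 copy named for its expression in males of some strains. It lies 65210 bases from *C4b* at chr17:34809092-34823464, on the same strand. The annotation lists *C4a* as a processed transcript and not as a protein-coding gene. The libraries had 7.27, 6.45 and 7.62 TPM after PBS and 26.4, 27.6 and 25.8 TPM after DT. The 3 DT libraries lay close together and all above the PBS libraries. The PBS group averaged 7.11 ± 0.601 TPM (SD, n = 3) and the DT-treated group 26.6 ± 0.918 TPM (SD, n = 3), with a log2 fold change of 1.88 (standard error 0.10, 95% confidence interval 1.66 to 2.10, limma adjusted p = 8.2e-05).

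The mRNAs of *C4a* and *C4b* are near copies, so how far their reads can be told apart was measured on the annotated transcripts. Over 5371 bases of *C4a* the identity to *C4b* was 96.2%, with 204 mismatches. Of the 5221 stretches of *C4a* that are as long as a sequenced read, 427 or 8.18% occurred without a mismatch in *C4b*. The longest stretch without a mismatch was 433 bases. How the aligner placed reads from such stretches was not tested. The following window of 90 bases, from exon 21 of *C4b* at chr17:34735430-34735519 on the minus strand, is shown because it holds 14 of the differences by which a read can be assigned to either gene. Capitals mark the bases that differ.
C4a: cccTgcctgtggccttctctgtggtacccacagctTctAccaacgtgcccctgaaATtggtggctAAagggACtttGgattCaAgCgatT
C4b: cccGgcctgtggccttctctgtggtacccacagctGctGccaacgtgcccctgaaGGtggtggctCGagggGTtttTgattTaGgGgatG

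Whether the reads assigned to each copy moved by the same factor was asked with the level of *C4a* as a share of that of *C4b* in each library. Any *C4b* reads placed on *C4a* would rise with *C4b*, so this share cannot show that both genes moved alike. The part of such reads in the *C4a* values was not tested. *C4a* stood at 5.84%, 5.50% and 6.26% of the *C4b* TPM in the PBS libraries and at 5.87%, 6.82% and 7.16% in the DT libraries. DT replicate 1 lay inside the PBS range and the other DT libraries lay above it. On the log2 scale the ratio was -4.09 ± 0.0943 (SD, n = 3) after PBS and -3.92 ± 0.148 (SD, n = 3) after DT. The difference of 0.17 could not be told apart from the spread between libraries (exact permutation test, two-sided p = 0.2, with 0.1 the smallest that 3 against 3 libraries allow).

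**Figure D2:**
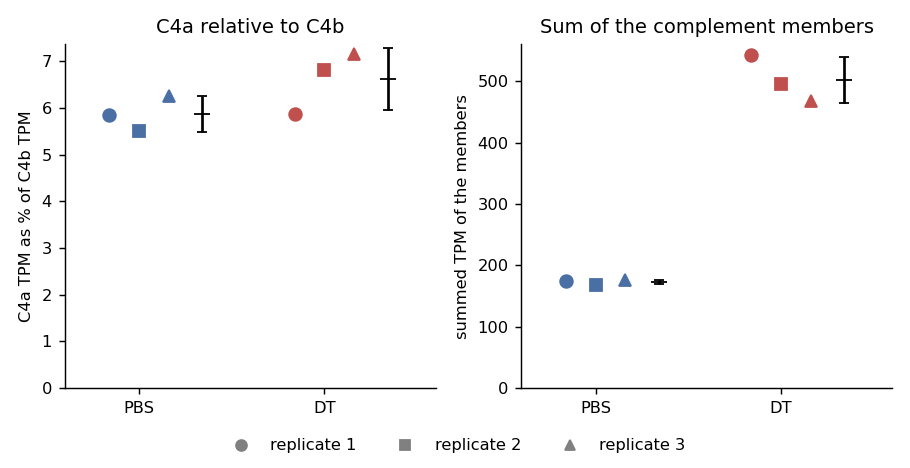
Left, the TPM of *C4a* as a percentage of that of *C4b* in each library. Right, the summed TPM of the 9 complement genes in each library. Symbols are libraries and bars are the mean and SD of 3 libraries. The *C4a* share overlapped between the groups, at 5.50% to 6.26% after PBS and 5.87% to 7.16% after DT, while the sum was 169 to 176 TPM after PBS and 468 to 542 TPM after DT.

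*C4b* carried most of the summed TPM of the 9 complement genes described here. The summed level of the 9 genes was 174, 169 and 176 TPM in the PBS libraries and 542, 495 and 468 TPM in the DT libraries. *C4b* alone made up 69.3% to 71.5% of that sum after PBS and 77.0% to 82.8% after DT. Without *C4b*, the sum was 51.7 ± 2.20 TPM in the PBS group (SD, n = 3) and 97.1 ± 9.22 TPM in the DT-treated group (SD, n = 3).

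*C1ra* encodes the protease C1r, which activates C1s once C1q has bound (chr6:124512405-124523443, plus strand). It was at 1.32, 1.21 and 2.51 TPM after PBS and at 1.05, 1.35 and 2.55 TPM after DT. In each group replicate 3 was the highest and the groups overlapped. The log2 fold change was -0.05 (95% confidence interval -0.95 to 0.86, limma adjusted p = 0.979), an interval wide enough to hold a change of almost 1 log2 unit in either direction. Only 24 to 55 reads per library were assigned to it, and 26.1% of the read-length stretches of *C1ra* also occur without a mismatch in its neighbour *C1rb*, which was itself under the filter.

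*C3* encodes the central component, on which all pathways converge, at chr17:57203970-57228136 on the minus strand. It was at 7.44, 8.47 and 7.59 TPM in the PBS libraries and at 18.6, 18.0 and 24.1 TPM in the DT libraries. All DT libraries lay above all PBS libraries, with DT replicate 3 the highest. The PBS group averaged 7.83 ± 0.552 TPM (SD, n = 3) and the DT-treated group 20.2 ± 3.39 TPM (SD, n = 3). On the log2 scale the fold change was 1.34 (standard error 0.12, 95% confidence interval 1.05 to 1.63, limma adjusted p = 0.00214), a 2.53-fold rise. Between 289 and 958 reads per library stood behind it. Across the alternative settings its adjusted p-value stayed between 1.51e-17 and 0.0272.

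The sequence before the start of *C3* is shown because *C3* was the called gene with an entry in the RefSeq promoter table (GRCm38.p6), in which 4 of the 9 complement genes were matched (*C3*, *C1ra*, *Cd55* and *Cd59a*). The 250 bases run from chr17:57228137 to chr17:57228386 on the minus strand.
C3: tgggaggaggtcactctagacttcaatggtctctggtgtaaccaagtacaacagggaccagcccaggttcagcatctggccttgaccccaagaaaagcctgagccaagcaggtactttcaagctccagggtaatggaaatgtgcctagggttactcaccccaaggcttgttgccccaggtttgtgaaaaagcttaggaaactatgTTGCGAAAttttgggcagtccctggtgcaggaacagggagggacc
Capitals mark the match to the C/EBP motif TTGCNNAA. The match, TTGCGAAA, lies 45 to 38 bases before the start. Of the 32851 promoter windows of the same length, 9.56% hold that motif on either strand. The other motifs searched, TTCNNNGAA (STAT, in 7.02% of windows), GGGNNTTTC (the first letters of an NF-kappa B motif, in 3.72%) and GAAANNGAA (IRF, in 7.13%), do not occur in this window. A match is a description of the letters and was not tested as a binding site.

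*Cfb* encodes factor B, the alternative pathway counterpart of C2. It lies 32910 bases beyond *C4a*, at chr17:34856374-34862518, and shares its strand with the overlapping annotated gene *Gm20547*, so their reads may have been split. *Cfb* was at 3.47, 3.18 and 3.11 TPM after PBS and at 2.49, 3.003 and 2.64 TPM after DT. The DT libraries all lay below the PBS libraries, but by little. Its log2 fold change was -0.27 (standard error 0.19, 95% confidence interval -0.71 to 0.18, limma adjusted p = 0.682), and the gene was not called.

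*C4b*, *C4a* and *Cfb* are neighbours in the class III region of the major histocompatibility complex. Within 50 kb on either side of them, 8 other genes were tested (*Tnxb*, *Stk19*, *Dxo*, *Skiv2l*, *Nelfe*, *C2*, *Zbtb12* and *Ehmt2*). Of these 8, 0 were called, and their log2 fold changes ran from -0.56 (*C2*) to 0.37 (*Zbtb12*). The lowest of these was itself a complement gene.

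*Serping1* encodes C1 inhibitor, the serpin that inactivates C1r and C1s (chr2:84765387-84775444, minus strand). It was at 10.7, 5.57 and 10.1 TPM in the PBS libraries and at 17.9, 17.5 and 19.5 TPM in the DT libraries. All DT libraries lay above all PBS libraries, and PBS replicate 2 lay well below the other PBS libraries. The average was 8.79 ± 2.81 TPM in the PBS group (SD, n = 3) and 18.3 ± 1.04 TPM in the DT-treated group (SD, n = 3). The log2 fold change of 1.08 (standard error 0.25, 95% confidence interval 0.52 to 1.65) did not pass the threshold (limma adjusted p = 0.138). Without PBS replicate 2 it was 0.78 (adjusted p = 0.1). On the recovered reads it was called by the exact test of edgeR (log2 fold change 1.05, adjusted p = 0.00666) and by DESeq2 (1.05, adjusted p = 0.00294), and not by the edgeR quasi-likelihood test (adjusted p = 0.143). Over all alternatives its adjusted p-value ran from 0.00294 to 0.369.

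PBS replicate 2 also had the lowest summed level of 7 mural cell genes among the 6 libraries, at 563 CPM against 787 and 835 CPM in the other PBS libraries and 674 to 821 CPM in the DT libraries. *Pdgfrb* and *Abcc9*, genes of pericytes, were at 232 and 80.1 CPM there. The 8 meningeal fibroblast genes had a summed level of 149, 109 and 102 CPM in PBS replicates 1 to 3. That sum was lowest in PBS replicate 3, where *Serping1* was at 10.1 TPM. Only *Igf2*, at 72.2, 57.6 and 28.9 CPM in PBS replicates 1 to 3, was itself lowest in PBS replicate 3. Among the PBS libraries, every other gene of this list was lowest in PBS replicate 2. *Col1a2*, for example, was at 24.1, 14.4 and 23.7 CPM. Both cell types are known to express *Serping1*, and the part of these cells in its values was not tested. The mural list itself had 4 of 7 genes higher and 3 lower after DT, and none was called.

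*Cfi* encodes factor I, the protease that cleaves C3b and C4b with the help of cofactors (chr3:129835884-129875332, plus strand). It had 0 reads in every library but DT replicate 3, which had 5. A count of 0 allows an expected level of up to 3 reads, or 0.0904 to 0.138 CPM per library, so it does not show that the gene was silent. No fold change is given.

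Of the membrane regulators, *Cd55* encodes decay-accelerating factor, which breaks up the enzymes that cleave C3 and C5 (chr1:130439027-130462744, minus strand, with the antisense gene *Gm16083*). It was at 8.30, 13.4 and 9.70 TPM after PBS and at 14.7, 12.6 and 18.4 TPM after DT. The groups overlapped, since PBS replicate 2 lay above DT replicate 2. On the log2 scale the fold change was 0.54 (standard error 0.20, 95% confidence interval 0.08 to 0.99, limma adjusted p = 0.401) and did not pass the threshold.

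*Cd59a* encodes CD59, which blocks the last step, assembly of the membrane attack complex (chr2:104095801-104115354, plus strand). It was at 11.2, 13.2 and 13.4 TPM after PBS and at 12.1, 10.4 and 14.2 TPM after DT. The PBS range lay inside the DT range. Its log2 fold change was -0.06 (standard error 0.16, 95% confidence interval -0.43 to 0.31, limma adjusted p = 0.938). No read-length stretch of *Cd59a* occurs in its copy *Cd59b*, and 2.73% of those of *Cd55* occur in *Cd55b*.

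In order of TPM, *C4b* was first after PBS at 121 TPM, at percentile 90.6 of the genes tested. *Cd59a*, *Cd55*, *Serping1*, *C3* and *C4a* followed at 12.6, 10.5, 8.79, 7.83 and 7.11 TPM, and each of these overlapped its neighbour in the order. *Cfb* at 3.25 TPM, *C1ra* at 1.68 TPM and *Cfi* at 0 came last, each apart from the one before. After DT the order was *C4b*, *C4a*, *C3*, *Serping1*, *Cd55*, *Cd59a*, *Cfb*, *C1ra* and *Cfi*. *C4a* at 26.6 TPM then stood apart from *C3* at 20.2 TPM, while *C3* overlapped *Serping1*, *Serping1* overlapped *Cd55*, *Cd55* overlapped *Cd59a*, and *Cfb* overlapped *C1ra*.

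The genes whose log2(CPM + 0.1) was most like that of *C4b* over the 6 libraries were *Serpina3n* (Pearson r = 0.997), *Vwa5a* (0.996) and *Slc14a1* (0.995). All of them passed the threshold in limma, with log2 fold changes of 3.45, 0.42 and 0.92. Most like *C3* were *Fam167a* (0.992), *Ccdc102a* (0.992) and *Mcm4* (0.991), with log2 fold changes of 0.75, 0.18 and 0.29, of which that of *Fam167a* passed. The r of *C4b* with *C4a* was 0.993 and with *C3* 0.953. Since the libraries form 2 groups, a gene that differs between the groups in the same direction has a high r, and these values are given as a description.

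The other genes of the complement system were taken from a list of 52, of which 51 were in the tables and 30 were tested. 12 had 0 reads in all libraries, among them the terminal components *C6*, *C7* and *C9* and the collectins *Mbl1* and *Mbl2*. Of the 30, 0 rose and 1 fell in limma, and at an unadjusted p-value under 0.05 there were 4 higher and 5 lower. On the recovered reads the edgeR quasi-likelihood test called 1 higher, and the exact test of edgeR and DESeq2 called 2 each. Over all genes tested, these tests called 87, 191 and 227 higher, in that order. The median log2 fold change of the 30 genes was -0.07. The groups did not overlap in 11, with DT above in 6 and below in 5. Over all 15137 genes tested, 8.75% lay above and 7.57% below without overlap, and 894 genes were higher and 682 lower at an unadjusted p-value under 0.05.

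**Figure D3:**
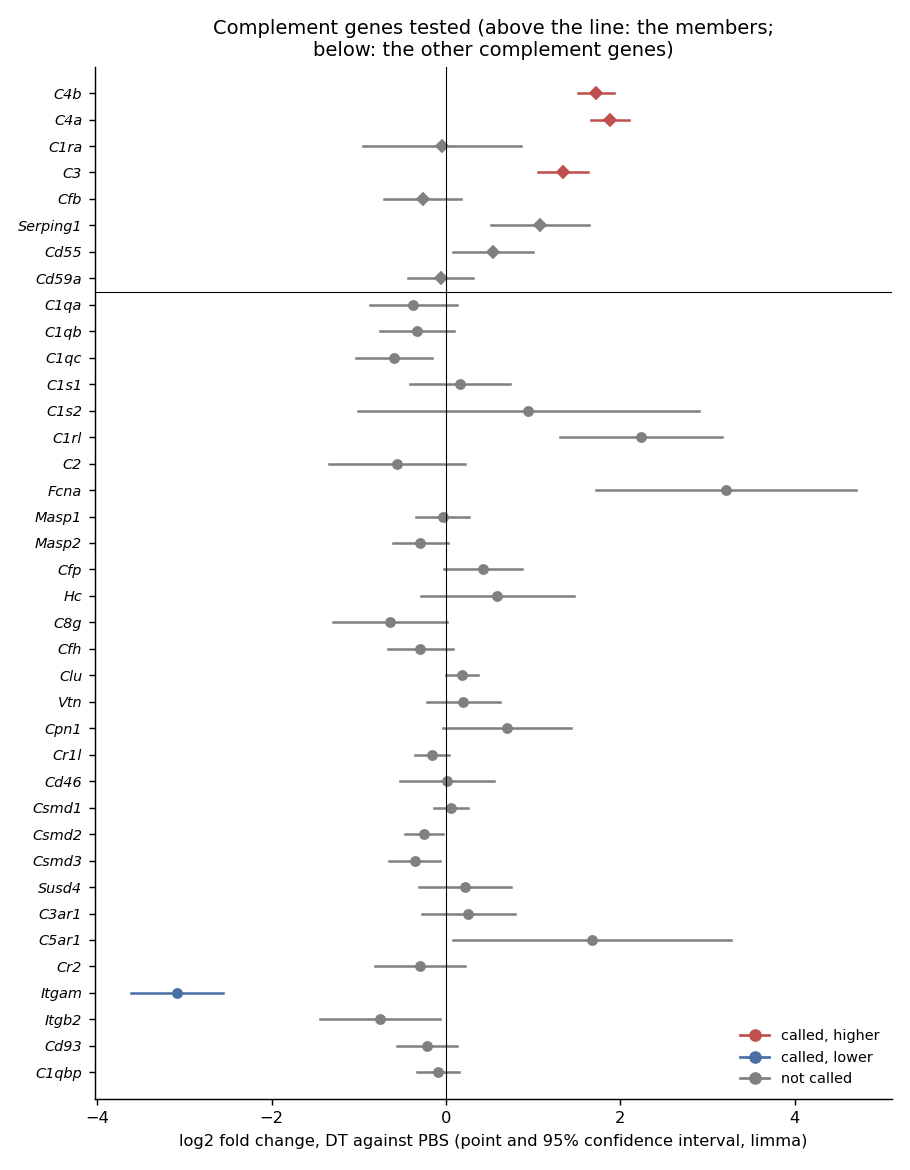
Log2 fold change of DT against PBS (horizontal axis, with the 95% confidence interval from limma) of the 8 tested members, above the line, and of the 30 other tested complement genes, below it. *C4b*, *C4a* and *C3* were called higher and *Itgam*, at -3.09, was called lower. *Fcna* at 3.21 and *C1rl* at 2.24 had wide intervals and were not called.

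The gene that fell was *Itgam*, which encodes CD11b, a chain of complement receptor 3 on microglia and other myeloid cells. It was at 7.69, 11.2 and 10.97 TPM after PBS and at 1.01, 0.886 and 1.46 TPM after DT, with no overlap. On the log2 scale the fold change was -3.09 (standard error 0.23, limma adjusted p = 0.000704). CD11b was also the antigen with which microglia were removed from the cell suspension before astrocytes were selected.

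The C1q chains, which start the classical pathway, did not pass the threshold. The highest of them, *C1qb*, was at 19.8, 26.5 and 30.0 TPM after PBS and at 23.4, 19.8 and 17.5 TPM after DT, with overlapping groups (log2 fold change -0.33, 95% confidence interval -0.76 to 0.10, limma adjusted p = 0.593). *C1qc* was at 20.5, 21.4 and 31.1 TPM after PBS and at 16.9, 14.2 and 16.7 TPM after DT, without overlap (log2 fold change -0.60, 95% confidence interval -1.03 to -0.16, limma adjusted p = 0.34). It was chosen after its values had been seen. All 3 chains were lower after DT by value. Of the classical pathway proteases, *C1s1*, which codes for C1s, was highest with 3.04 ± 0.691 TPM in the PBS group (SD, n = 3) and 3.46 ± 0.809 TPM in the DT-treated group (SD, n = 3) (log2 fold change 0.16, limma adjusted p = 0.87).

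Outside the rule for named genes, *C1rl* and *Fcna* were picked after their values had been seen, because some alternative settings called them higher. *C1rl*, a C1r-like protease, was at 0.151, 0.236 and 0.047 TPM after PBS and at 1.15, 1.13 and 1.07 TPM after DT, a log2 fold change of 2.24 (limma adjusted p = 0.0605, and 1.99e-06 to 0.286 under the alternatives). With pseudocounts of 0.5 and 1 the log2 fold change was 1.30 and 0.88. It had 2 to 35 reads per library. *Fcna*, the lectin pathway recognition protein ficolin A, had 0, 0 and 0.786 TPM after PBS and 3.76, 3.602 and 2.42 TPM after DT, a log2 fold change of 3.21 (limma adjusted p = 0.0976, and 0.00048 to 0.356 under the alternatives). With pseudocounts of 0.5 and 1 it was 1.70 and 1.15, below that of *C4a* (1.85 and 1.81). Both genes had DT above PBS in all libraries. The highest lectin pathway gene, the protease gene *Masp2*, was at 19.3 ± 3.62 TPM in the PBS group (SD, n = 3) and 15.4 ± 1.01 TPM in the DT-treated group (SD, n = 3) (log2 fold change -0.30, limma adjusted p = 0.511).

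Among the other roles, the highest gene of each was as follows. Properdin, the stabilizer of the alternative pathway enzyme encoded by *Cfp*, was at 8.51, 8.05 and 8.62 TPM after PBS and at 12.2, 13.9 and 8.79 TPM after DT (log2 fold change 0.43, limma adjusted p = 0.509). The terminal component gene *C8g* was at 4.51 ± 0.770 TPM in the PBS group (SD, n = 3) and 2.77 ± 0.417 TPM in the DT-treated group (SD, n = 3) (log2 fold change -0.64, limma adjusted p = 0.483). Its groups did not overlap, with DT below.

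*Clu*, which encodes clusterin, an inhibitor of the terminal complex, had by far the highest level of all these genes, at 7839 ± 327 TPM in the PBS group (SD, n = 3) and 9011 ± 460 TPM in the DT-treated group (SD, n = 3). All DT libraries lay above all PBS libraries, but the log2 fold change of 0.19 did not pass (limma adjusted p = 0.473). Of the membrane regulators, *Cr1l*, which encodes the mouse regulator Crry, was highest at 70.0 ± 1.62 TPM in the PBS group (SD, n = 3) and 63.3 ± 4.72 TPM in the DT-treated group (SD, n = 3) (log2 fold change -0.16, limma adjusted p = 0.577). Of the receptor genes, *C1qbp*, which encodes a C1q-binding protein, was highest at 54.4 ± 5.57 TPM in the PBS group (SD, n = 3) and 51.3 ± 1.22 TPM in the DT-treated group (SD, n = 3) (log2 fold change -0.09, limma adjusted p = 0.812).

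Genes of cells other than astrocytes were also detected, and some of their lists moved with the treatment. The 12 microglia genes had a summed level of 244 to 278 CPM after PBS and 143 to 163 CPM after DT, with all 12 lower and 7 called. *Siglech*, the gene that carries the receptor, had 0.967, 2.14 and 1.93 CPM after PBS and 0 in every DT library. The 9 genes of border-associated macrophages had 40.2 to 60.7 CPM after PBS and 97.9 to 112 CPM after DT, and all 8 tested were higher. *Mrc1*, *Lyve1* and *F13a1* were the 3 that were called. Macrophages are known to express *C3* and *Fcna*, and the part of these cells in the values of *C3*, *C4b*, *C4a*, *Cfp*, *Fcna* and *Serping1* was not tested.

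Of the 8 monocyte and neutrophil genes in the tables, *Plac8*, *Chil3*, *S100a8*, *S100a9*, *Cxcr2* and *Retnlg* had 0 reads in all 6 libraries. The other 2 were detected. *Ly6c2* had 17 to 40 reads per library (log2 fold change -0.31, limma adjusted p = 0.816), and the monocyte gene *Ccr2* had 0, 16 and 11 reads in the PBS libraries and 5, 0 and 3 in the DT libraries, under the filter. The 7 choroid plexus genes had 47.5 to 854 CPM after PBS and 534 to 1490 CPM after DT, with overlapping groups. Most of this sum was *Ttr*, at 152, 807 and 33.4 CPM after PBS and at 1416, 917 and 489 CPM after DT. *Folr1* and *Aqp1* had all DT libraries above all PBS libraries, and the other genes of this list overlapped. All 7 were higher by value, with a median log2 fold change of 1.57, the highest of any of these lists, and none was called. The 8 endothelial genes had 795 to 1249 CPM after PBS and 658 to 783 CPM after DT, all lower and none called. The ependymal list had 199 to 239 CPM after PBS and 261 to 424 CPM after DT, all 6 higher and none called. The 3 oligodendrocyte precursor genes had 261.5 to 351 CPM after PBS and 229 to 258 CPM after DT, all lower and none called. The part of these cells in the complement values was not tested. The lists of meningeal fibroblasts, oligodendrocytes and neurons overlapped between the groups and had 0 genes called in limma.

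**Figure D4:**
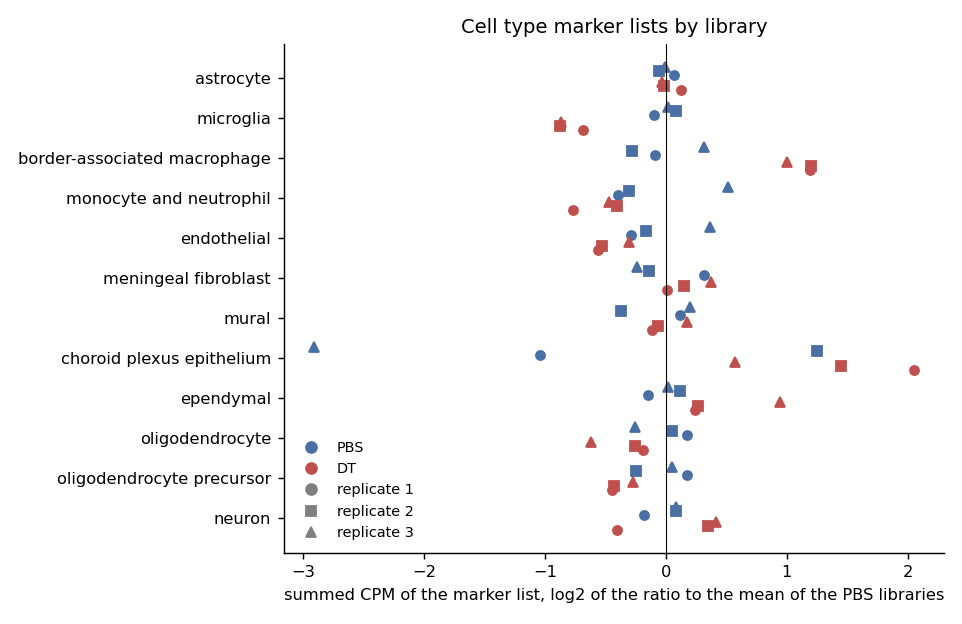
Summed CPM of each cell type marker list, as the log2 of its ratio to the mean of the PBS libraries (horizontal axis), in the 3 PBS and 3 DT libraries. Each point is a library. The astrocyte list stayed within a narrow range, the microglia list was lower in all DT libraries, the border-associated macrophage list was higher in all DT libraries, and the choroid plexus list spread widely within both groups.

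The calls for *C4b*, *C4a* and *C3* held in each of the 18 alternative settings. The log2 fold change ran from 1.63 to 1.81 for *C4b*, from 1.80 to 1.93 for *C4a* and from 1.21 to 1.43 for *C3*. *Cd55* stayed between 0.40 and 0.72 and *Cfb* between -0.33 and -0.20, and neither was called in any of the 18. The values of *C1ra* and *Cd59a* changed sign when certain libraries were left out, from -0.38 to 0.26 and from -0.17 to 0.07.

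**Figure D5:**
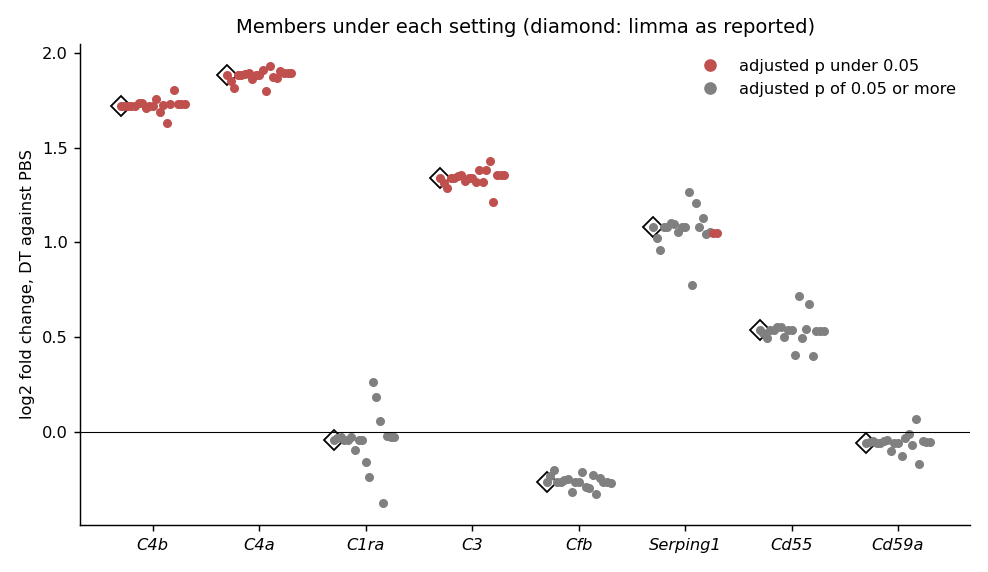
Log2 fold change of DT against PBS (vertical axis) of the 8 tested members in limma as reported (diamond) and under each alternative setting that gave a value (points, in red where the adjusted p-value was under 0.05). *C4b*, *C4a* and *C3* were called under every setting, *Serping1* under 2, and the other 4 genes under none.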

How the data were processed

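RNA-seq libraries of hippocampal astrocytes (3 PBS, 3 DT, each a pool from 2 mice) were analysed from the deposited tables. Per the labels and the methods of the study, microglia were removed with anti-CD11b beads before ACSA-2 selection, and the authors trimmed reads with Trim Galore 0.5.0, mapped them to mm10 with HISAT2 2.1.0 using strand information, removed ribosomal reads with bedtools 2.25.0 and quantified genes with StringTie 1.3.5 and edgeR 3.24.3. The authors deposited CPM as a signal relative to TMM-scaled library sizes (factors 0.974 to 1.02) and TPM. Columns with their p-values, with q-values and with log2 fold changes were not used. Plain CPM had been assumed when the tests were set. Within the deposited CPM, 100% of values corresponded to whole reads within a tolerance of 0.1 reads, so reads were recovered for count tests. The libraries gave 21704891 to 32933975 reads.

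Genes whose CPM averaged 0.5 or more were compared on log2(CPM + 0.1), which understates the change of low genes, with limma 3.58.1 in R 4.3.3 (variance trend, two-sided, Benjamini-Hochberg adjustment over all genes). limma and the count tests were tested on simulated data. The members and all lists were chosen with earlier results of these data known. The text names the 9 members, genes of the wider list past the threshold or highest in TPM in their role, and the 3 genes most like *C4b* and *C3*. Alternatives were pseudocounts of 0.5 and 1, no filter, a mean CPM of at least 2, TPM, CPM without the TMM factor, quantile normalization, no variance trend, a replicate block, each library left out, and, on recovered reads, DESeq2 1.42.0 and both the quasi-likelihood and the exact test of edgeR 4.0.16. Coordinates follow the GENCODE M21 annotation of mm10. Where 0 reads are given a limit of 3 reads, it covers counting error only.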

Additional observations from a re-analysis of the deposited data

How the results depend on the processing

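The pools of a group came from independent experiments, but no source says that a replicate number marks an experiment. Same-numbered libraries did not deviate together in all pairs (correlations of deviations 0.115, 0.0105 and 0.118). Between libraries of different number these correlations ran from -0.124 to 0.0115. The same-numbered correlation was thus the highest for replicates 1 and 3, and it was not for replicate 2. The replicate numbers were not taken to pair the libraries, and a replicate block was run as an alternative. Under a replicate block, limma called 79 genes higher and 30 lower, with 3 members higher and 0 lower, and the *C4a* to *C4b* ratio and the summed level had the same differences of 0.17 and 329 TPM. Between same-numbered libraries the log2 ratio differed by 0.0077, 0.31 and 0.19, higher after DT in 3 of 3 (exact sign-flip permutation test, two-sided p = 0.25, the smallest that 3 pairs allow). Of all genes tested, 35 were higher and 11 lower without the variance trend, 191 and 72 with the exact test of edgeR, and 227 and 98 with DESeq2, against 84 and 24. With 1 library left out, 39 to 72 were higher and 9 to 20 lower, with the fewest higher without DT replicate 1 and the fewest lower without PBS replicate 2. Of the other complement genes, 0 were higher in limma, but 2 were (*C1rl* and *Fcna*) with a pseudocount of 0.5, with the exact test of edgeR and with DESeq2. *Fcna* alone was called with a pseudocount of 1 and without PBS replicate 3 (0 to 1 called over the fits without 1 library), *C1rl* alone without a filter, without the variance trend and with the edgeR quasi-likelihood test, and *Clu* alone with quantile normalization, 1 gene in each. *Serping1* was called with the exact test of edgeR and with DESeq2 (log2 fold change 1.05 in both). *C1ra* turned positive without PBS replicate 3 (0.26), DT replicate 1 (0.18) or DT replicate 2 (0.058), in a range of -0.38 to 0.26. *Cd59a* did so without DT replicate 2 (0.066, range -0.17 to 0.066), and *C1s1* turned to -0.0047 without PBS replicate 2 (range -0.0047 to 0.33). In CPM, the difference in the summed level was 582 in place of 329 TPM, another scale. With a mean CPM of at least 2, *C1ra*, *C1rl* and *Fcna* were not tested, and *Cfi* was tested only without a filter. The cause of these changes was not tested. *Cfi*, *C1ra*, *C1rl* and *Fcna* had at most 5, 55, 35 and 49 reads in a library, and the part of depth in their values was not tested.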
